A study of Mus musculus with 16 samples.

Results

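The T cell receptor β (TCRβ) repertoire of tumor T cells was compared between mice given ANT008 together with anti-PD-1 and control mice. These 8 samples, 4 in each group, were taken by their labels from the 16 samples of the series, and only rearrangements in the In reading frame class were used. The mice were female C57BL/6 mice with subcutaneous KPC-Luc tumors, a luciferase-carrying mouse pancreatic ductal adenocarcinoma line. From 6 to 7 days after implantation, and for 10 days, combination mice received 10 µg of ANT008, a peptide antagonist of the receptors for vasoactive intestinal peptide, every day under the skin, and 200 µg of anti-PD-1 antibody into the peritoneum every 3 days. Control mice received the same amounts of scrambled peptide and isotype IgG on the same schedule. T cells were enriched from tumor suspensions by magnetic selection on CD90.2, each mouse gave 1 sample, and the mice were 8 to 10 weeks of age in the experiments. No other gene was read out in these samples, so the labelled cell type could only be checked by the presence of TCRβ rearrangements, and fewer cells of a clone could not be told apart from less receptor template per cell.

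A TCRβ chain is assembled in a developing thymocyte by joining 1 V, 1 D and 1 J gene segment. Nucleotides are trimmed from the segment ends, and nontemplated (N) nucleotides are added between V and D (N1) and between D and J (N2). The resulting junction encodes the third complementarity-determining region (CDR3), the loop that lies closest to the peptide held by an MHC molecule. T cells descending from one thymocyte keep the same rearrangement, so an expanded clone appears as 1 nucleotide sequence with many templates. Clones with few or no N nucleotides are made independently in many individuals and are therefore often found in more than 1 mouse.

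In-frame templates, the estimated starting molecules of in-frame rearrangements, ranged from 26005 to 41224 in control mice and from 24525 to 58676 in combination mice. They came from 3868 to 10062 unique nucleotide rearrangements in control mice and from 6640 to 13238 in combination mice. The share of those rearrangements seen as a single template was 71.5% to 78.5% in control mice and 72.2% to 80.5% in combination mice. A rearrangement with 0 templates could still have made up to 0.0115% of templates in control replicate 1 and up to 0.00511% in combination replicate 3, counting 3 templates as the upper limit.

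The most frequent clone of each mouse is printed here, because these clones carry many of the differences in gene usage that follow. Each is an 87-base rearrangement read 5′ to 3′, with the bases from the first CDR3 codon onward in capitals. The read stops before the last CDR3 codon.
Control replicate 1, Trbv14 with Trbj2-7: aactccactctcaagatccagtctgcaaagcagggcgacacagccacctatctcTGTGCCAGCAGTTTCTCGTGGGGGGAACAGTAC
Control replicate 2, Trbv1 with Trbj2-2: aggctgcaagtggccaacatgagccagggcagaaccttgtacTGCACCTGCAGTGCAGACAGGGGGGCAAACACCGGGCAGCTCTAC
Control replicate 3, Trbv5 with Trbj2-1: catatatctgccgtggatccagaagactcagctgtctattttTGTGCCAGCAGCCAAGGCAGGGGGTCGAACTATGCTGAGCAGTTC
Control replicate 4, Trbv13-2 with Trbj1-2: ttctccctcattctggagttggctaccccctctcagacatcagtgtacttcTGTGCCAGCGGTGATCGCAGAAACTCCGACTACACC
Combination replicate 1, Trbv13-1 with Trbj2-2: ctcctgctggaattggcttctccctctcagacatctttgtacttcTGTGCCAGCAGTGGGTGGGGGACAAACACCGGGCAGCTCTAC
Combination replicate 2, Trbv5 with Trbj2-7: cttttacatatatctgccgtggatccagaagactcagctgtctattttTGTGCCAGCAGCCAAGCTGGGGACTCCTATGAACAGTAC
Combination replicate 3, Trbv13-3 with Trbj2-7: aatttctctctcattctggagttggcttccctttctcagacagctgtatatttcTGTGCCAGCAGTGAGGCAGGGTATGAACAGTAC
Combination replicate 4, Trbv13-3 with Trbj2-7: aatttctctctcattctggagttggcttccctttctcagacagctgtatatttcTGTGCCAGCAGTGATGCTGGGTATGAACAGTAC
Of these, 1 had no N nucleotides, namely the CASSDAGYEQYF clone of combination replicate 4. Its CDR3 occurred in all 7 other mice, whereas the leading CDR3s of 6 mice occurred in none of the other 7. The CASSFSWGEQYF clone of control replicate 1 was the remaining one, and its CDR3 occurred in 2 other control mice. In control replicate 2 this was 1 template with the same nucleotide sequence. In control replicate 3 it was 23 templates of a different rearrangement.

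The leading clone took 14.3% of templates in control replicate 1, 18.2% in control replicate 2, 5.75% in control replicate 3 and 12.7% in control replicate 4. In combination mice it took 7.31%, 7.20%, 18.0% and 5.95% in replicates 1 to 4. The ranges overlapped, since combination replicate 3 was close to the highest control mouse and control replicate 3 was below all combination mice. The Wilson 95% intervals of these shares were narrow, from 5.52% to 5.99% in control replicate 3 for example, and covered counting error only. Below the leading clone, the next most frequent clone took 4.98% to 10.0% of templates in control mice and 1.96% to 6.60% in combination mice.

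V gene usage was compared as the percent of in-frame templates carrying each of 33 V genes, whose names all matched a gene symbol of the mouse annotation. One V gene was called, Trbv14, which was lower in combination mice. It took 15.9%, 4.20%, 1.72% and 12.6% of templates in control replicates 1 to 4, and 2.88%, 2.05%, 1.76% and 1.71% in combination replicates 1 to 4. The groups overlapped, because control replicate 3 was as low as the combination mice. The fold change was -2.03 on the log2 scale (SE 0.59, adjusted p = 0.0352, edgeR), and calls made up 3.03% of the V genes tested.

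The high Trbv14 share of 2 control mice sat in single clones. In control replicate 1, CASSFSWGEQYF joined to Trbj2-7 held 90.4% of all Trbv14 templates. In control replicate 4, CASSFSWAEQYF, also joined to Trbj2-7, held 65.1%. These 2 CDR3s of 12 residues differ at 1 residue, and neither was found in any of the 4 combination mice. Without the leading clone of each mouse, Trbv14 took 1.40% to 4.39% of templates in control mice and 1.12% to 2.57% in combination mice. Counted as unique rearrangements, Trbv14 made up 3.01% ± 0.41 (SD, n = 4) in control mice and 2.44% ± 0.16 (SD, n = 4) in combination mice. The call on Trbv14 was lost in counts of unique rearrangements, without the 10 most frequent rearrangements of each sample, under a filter on low counts, and without control replicate 1, control replicate 4 or combination replicate 3.

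**Figure D1:**
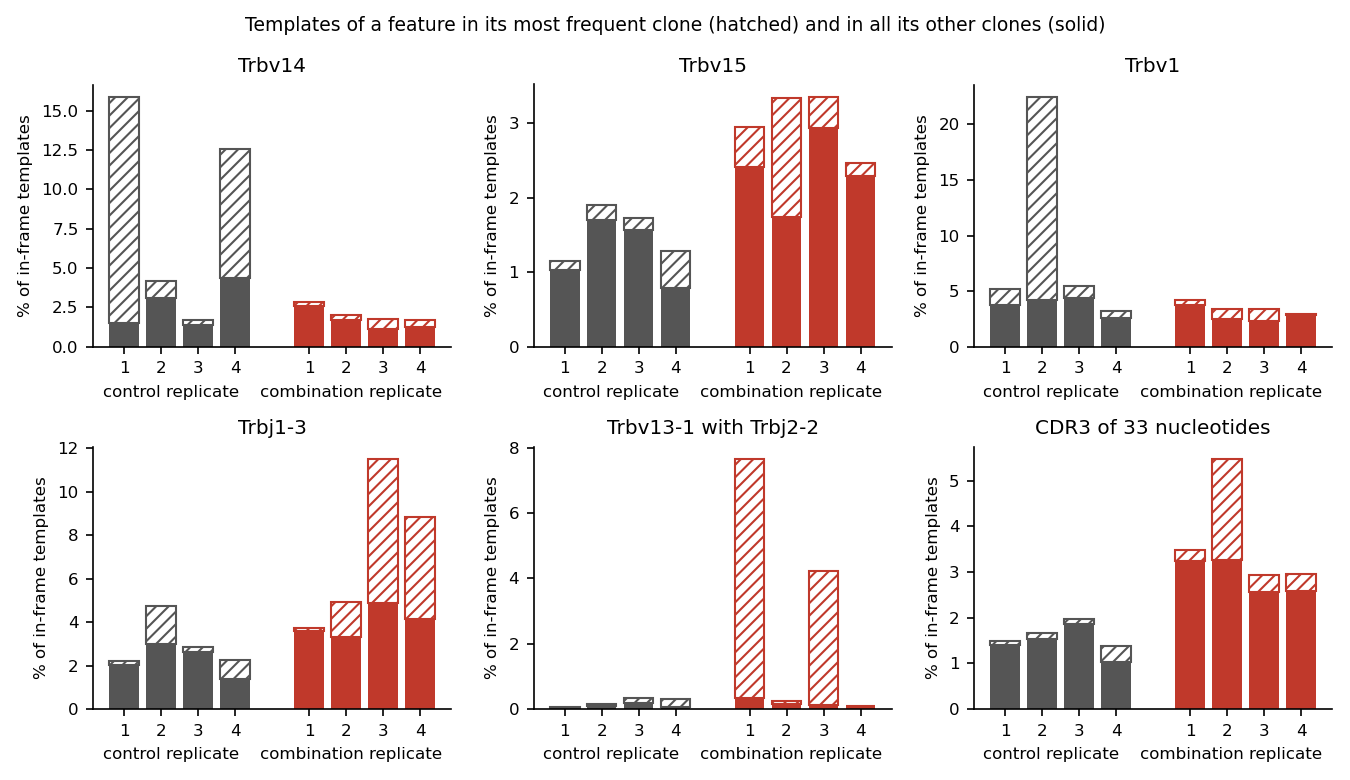
Percent of in-frame templates of 6 features (y axis) in each control and combination mouse (x axis, replicate number), divided into the feature's most frequent clone (hatched) and all its other clones (solid). Most of the Trbv14 share in control replicate 1 and most of the Trbv13-1 with Trbj2-2 share in combination replicates 1 and 3 lie in 1 clone, while the 33-nucleotide class is mostly solid in every mouse.

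Trbv15 showed the opposite pattern of spread. It took 1.15%, 1.90%, 1.72% and 1.28% of templates in control mice and 2.95%, 3.34%, 3.35% and 2.46% in combination mice. Every combination mouse was above every control mouse, which was true of 3.03% of V genes, that is of Trbv15 alone. The log2 fold change of 1.00 (SE 0.44) did not pass the threshold (adjusted p = 0.217, edgeR). The leading Trbv15 clone held 6.86% to 47.9% of the Trbv15 templates of a combination mouse. Without it, Trbv15 took 0.79% to 1.70% in control mice and 1.74% to 2.93% in combination mice, still without overlap. As unique rearrangements the groups were close, with 2.92% ± 0.08 (SD, n = 4) in control and 2.82% ± 0.27 (SD, n = 4) in combination mice.

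In the next V genes by p, 1 clone held most of the templates of the extreme mouse. Trbv22, which the annotation lists as a pseudogene, took 0.027% to 0.115% of templates in control mice and 1.90%, 0.041%, 0.036% and 0.064% in combination mice (log2 fold change 2.67, SE 0.96, adjusted p = 0.118, edgeR). In combination replicate 1, 92.4% of its templates belonged to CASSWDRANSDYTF, joined to Trbj1-2 with no N nucleotides. Trbv1 took 5.19%, 22.5%, 5.48% and 3.23% in control mice and 2.96% to 4.24% in combination mice (log2 fold change -1.38, SE 0.54, adjusted p = 0.151, edgeR). The leading clone of control replicate 2 held 81.1% of its Trbv1 templates. Trbv26 reached 8.66% in combination replicate 3, where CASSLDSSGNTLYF held 76.2% of it, against 1.62% to 3.69% in the other 7 mice (log2 fold change 0.93, SE 0.46, adjusted p = 0.328, edgeR).

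Among the Trbv13 genes, a family that takes the largest part of the mouse V repertoire, none passed the test, and 2 of 3 had a higher mean in combination mice. Trbv13-1 took 2.35%, 7.37%, 4.55% and 6.29% in control mice and 14.0%, 7.47%, 10.97% and 6.49% in combination mice (log2 fold change 0.92, SE 0.49, adjusted p = 0.335, edgeR). The groups overlapped only in that combination replicate 4 lay below control replicate 2. Trbv13-3 took 7.23% to 9.75% in control mice and 5.44% to 22.3% in combination mice, and Trbv13-2 took 5.13% to 17.1% against 5.46% to 7.79%. The summed family took 22.4% ± 7.6 (SD, n = 4) of templates in control and 29.2% ± 7.1 (SD, n = 4) in combination mice, with a median log2 fold change of 0.64 over its members against 0.13 over all V genes tested. As unique rearrangements it took 23.2% and 22.6%. The 2 Trbv12 genes measured took 6.72% ± 5.10 (SD, n = 4) together in control and 6.80% ± 1.66 (SD, n = 4) in combination mice, and neither passed the test.

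**Figure D2:**
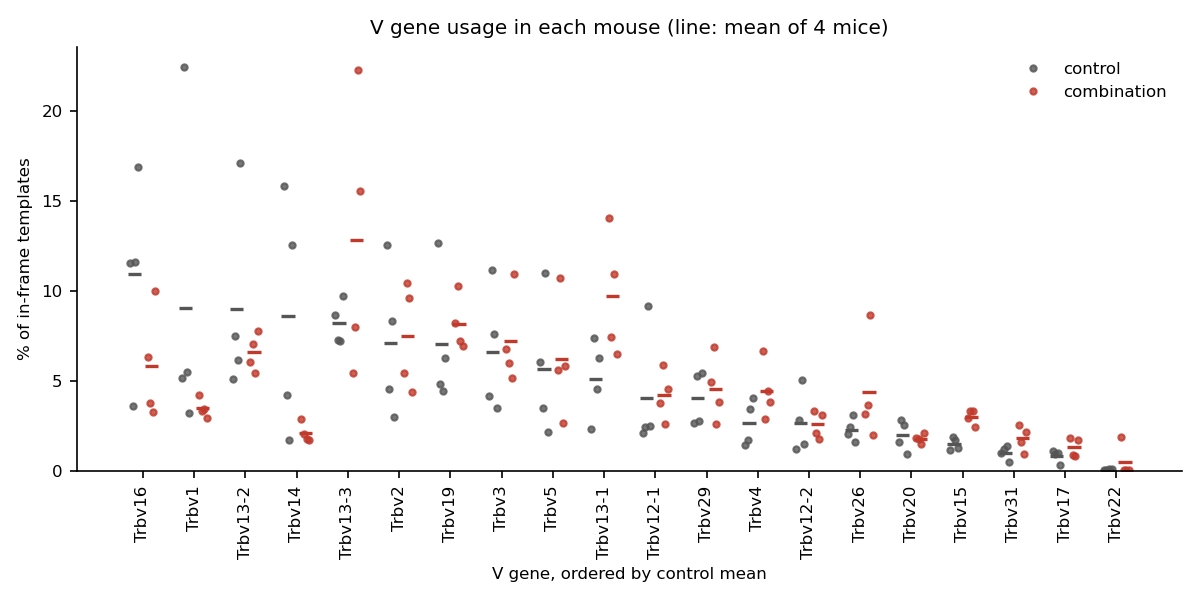
Percent of in-frame templates (y axis) for each V gene above 1% in either group, and for Trbv22 (x axis, ordered by the control mean), with 1 point per mouse and a line at the mean of 4 mice. Trbv14 and Trbv1 are spread widely in control mice and narrowly in combination mice, and for Trbv15 all combination points lie above all control points.

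Of the remaining V genes above 1% of control templates, Trbv16 differed most in its mean, with 10.9% ± 5.5 (SD, n = 4) in control and 5.85% ± 3.06 (SD, n = 4) in combination mice, and did not pass the test. For Trbv2, Trbv3, Trbv5, Trbv19 and Trbv29 the means of the 2 groups differed by less than the SD of either group. For Trbv4 and Trbv31 they differed by more than either SD, and neither gene passed the test. Trbv4 took 2.66% ± 1.30 (SD, n = 4) in control and 4.46% ± 1.59 (SD, n = 4) in combination mice. Trbv31 took 1.02% ± 0.38 (SD, n = 4) and 1.81% ± 0.71 (SD, n = 4). Across all 33 V genes the mean was higher in combination mice for 21 and lower for 10, and 5 had an unadjusted p under 0.05.

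The spread between mice also differed by unit of counting. Per template, the control SD of Trbv14 was 6.72 percentage points and that of Trbv1 was 8.97, against 0.54 for both in combination mice. Per unique rearrangement, the SD of Trbv1 was 0.36 in control and 0.37 in combination mice. Trbv1 thus varied little among the rearrangements of control mice and widely among their templates. Whether the spread itself differed between the groups was not tested.

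edgeR called none of 14 J genes (0% of those tested), with 1 at an unadjusted p under 0.05, and DESeq2 called 0 J genes. Trbj1-3 came closest. It took 2.22%, 4.75%, 2.87% and 2.23% of templates in control mice and 3.71%, 4.92%, 11.5% and 8.82% in combination mice. Control replicate 2 lay above combination replicate 1, and the other control mice lay below all combination mice. The log2 fold change was 1.26 (SE 0.42, adjusted p = 0.0952, edgeR, the smallest of the J genes). In combination replicate 3, 57.4% of Trbj1-3 templates belonged to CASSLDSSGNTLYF with Trbv26, and in combination replicate 4 a single clone with Trbv16 held 53.2%. Without the leading clone of each mouse, Trbj1-3 took 1.39% to 2.98% in control mice and 3.32% to 4.89% in combination mice, so that the groups no longer overlapped. Without the 10 most frequent rearrangements of each sample, however, its log2 fold change fell to 0.35 (adjusted p = 0.379, edgeR). Unique rearrangements with Trbj1-3 made up 5.01% in control and 5.06% in combination mice. Without control replicate 2 or without combination replicate 1, Trbj1-3 passed the threshold, with log2 fold changes of 1.57 and 1.48.

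**Figure D3:**
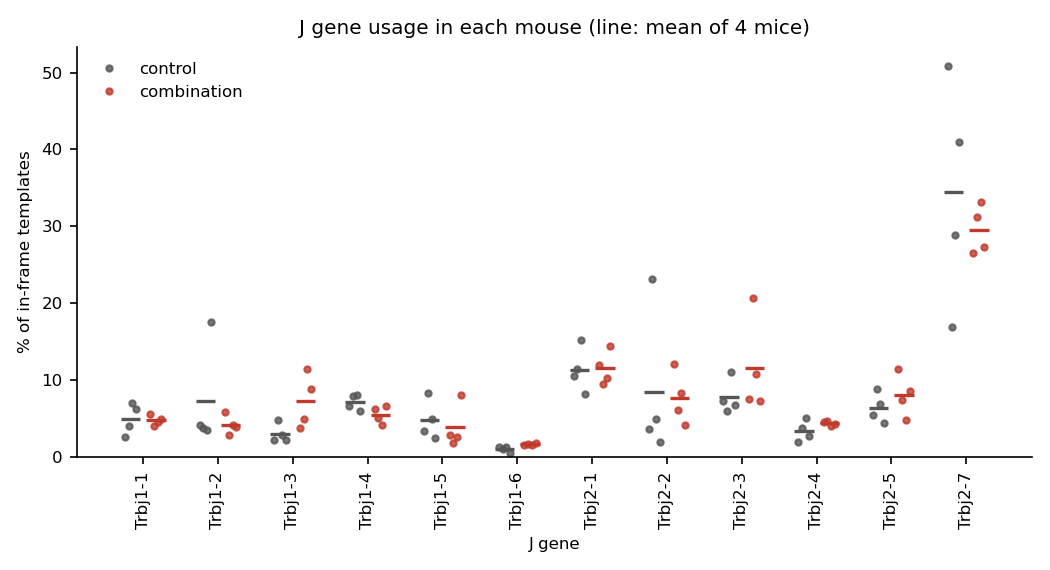
Percent of in-frame templates (y axis) for each J gene above trace level (x axis), with 1 point per mouse and a line at the mean of 4 mice. Trbj1-3 is highest in combination replicates 3 and 4, and Trbj2-7 ranges from 16.8% to 50.8% in control mice but only from 26.5% to 33.2% in combination mice.

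Trbj1-6 was the one J gene whose groups did not overlap (7.14% of J genes), with 0.57% to 1.35% in control mice and 1.4998% to 1.80% in combination mice, and it did not pass the test. Trbj1-2 took 3.53% to 4.11% in 3 control mice and 17.6% in control replicate 4, where the mouse's leading clone, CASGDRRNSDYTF, held 72.3% of it. In combination mice it took 2.82% to 5.83% (log2 fold change -0.80, SE 0.45, adjusted p = 0.380, edgeR). Trbj2-6, listed as a pseudogene, was at 0.069% in control replicate 1, where 1 clone held 83.3% of it, at 0 templates in the other control mice and at most 0.0041% in combination mice (log2 fold change -2.76, SE 1.49, adjusted p = 0.380, edgeR). Trbj2-7, the J gene with the most templates, took 50.8%, 16.8%, 28.9% and 41.0% in control mice and 26.5%, 31.2%, 33.2% and 27.2% in combination mice.

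The 2 J clusters, each downstream of its own D gene, were used in like proportion. Templates with a gene of the first cluster made up 28.2% ± 6.2 (SD, n = 4) in control and 27.1% ± 5.7 (SD, n = 4) in combination mice, a difference of -1.07 percentage points (SE 4.21, exact permutation p = 0.743, two-sided). Of the 7 genes of the first cluster 3 had a higher mean in combination mice, with a median log2 fold change of -0.05, and of the 7 genes of the second cluster 4 did, with a median of 0.02. The median over all J genes tested was -0.01.

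The call on V-J pairs depended on the tool. edgeR called none of 246 pairs (0%), with 37 at an unadjusted p under 0.05, of which 22 were higher and 15 lower in combination mice. DESeq2 called 16 of the 190 pairs to which it gave an adjusted p (8.42%), 5 of them higher and 11 lower. The median log2 fold change over all pairs was 0.47, and 172 pairs had a higher mean in combination mice. The groups did not overlap for 14 pairs (5.69%), of which 11 were higher in combination mice. Among the 20 pairs with Trbj1-3, 15 had a higher mean in combination mice and 3 did not overlap, with a median log2 fold change of 0.75. Over all 246 pairs these values were 172, 14 and 0.47. Among the 20 pairs with Trbj1-2, 11 had a higher mean and 3 also did not overlap, with a median of 0.0041. An unadjusted p under 0.05 was reached by 7 pairs with Trbj1-3 and by 6 with Trbj1-2. Of the 6 pairs with the smallest p, 4 held Trbj1-3, all with a higher mean in combination mice, and DESeq2 called all 6.

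Trbv13-3 with Trbj1-3 took 0.038%, 0.090%, 0.105% and 0.035% of templates in control mice and 0.135%, 0.188%, 0.336% and 0.824% in combination mice, without overlap (log2 fold change 2.46, SE 0.69, adjusted p = 0.163, edgeR). A different clone led this pair in each of the 8 mice. The leading clone held 6.67%, 54.3%, 54.3% and 79.5% of the pair in combination replicates 1 to 4, and 10.8% to 53.8% in control mice. Trbv16 with Trbj1-3 also did not overlap, at 0.027% to 0.121% against 0.126%, 0.281%, 0.310% and 4.84% (log2 fold change 4.06, SE 1.15, adjusted p = 0.163, edgeR). In combination replicate 4, 1 clone held 96.9% of it. Trbv15 with Trbj1-3 took 0.013% to 0.081% in control mice and 0.102%, 1.64%, 0.539% and 0.080% in combination mice (log2 fold change 3.63, SE 1.05, adjusted p = 0.163, edgeR). Its leading clone held 97.5% of the pair in combination replicate 2 and 73.4% in combination replicate 3. Without the leading clone of each mouse, few templates were left, at 0% to 0.037% in control and 0.041% to 0.143% in combination mice.

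Trbv26 with Trbj1-3 rested on combination replicate 3, at 6.69% against 0.195% to 0.624% in the other combination mice and 0.053% to 0.365% in control mice (log2 fold change 3.13, SE 0.95, adjusted p = 0.163, edgeR). Trbv13-1 with Trbj2-2 took 7.65% in combination replicate 1 and 4.24% in combination replicate 3, with 95.6% and 97.0% of it in 1 clone each, against 0.050% to 0.349% in the other 6 mice (log2 fold change 3.86, SE 1.27, adjusted p = 0.187, edgeR). Trbv29 with Trbj1-4 was the pair of this set that was lower in combination mice. It took 0.331%, 1.16%, 0.328% and 2.43% in control mice and 0.233%, 0.216%, 0.085% and 0.310% in combination mice, without overlap (log2 fold change -2.33, SE 0.69, adjusted p = 0.163, edgeR). Its leading clone held 72.1%, 86.0%, 32.8% and 97.1% of the pair in control replicates 1 to 4. Without the leading clone of each mouse, the groups overlapped, at 0.070% to 0.220% in control and 0.080% to 0.218% in combination mice.

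CDR3 length was the second feature with a call. CDR3s of 33 nucleotides, or 11 amino acids, were higher in combination mice. They took 1.496%, 1.67%, 1.97% and 1.38% of templates in control mice and 3.48%, 5.47%, 2.93% and 2.95% in combination mice. All combination mice lay above all control mice. The log2 fold change was 1.19 (SE 0.36, adjusted p = 0.0435, edgeR), and this was 1 call in 11 lengths tested, or 9.09%. The call was lost with DESeq2, with TMM scaling, in a fit on the 8 samples alone, with the replicate block, without the filter, by unique rearrangement and without the 10 most frequent rearrangements, while the log2 fold change stayed above 0. It was also lost without any 1 of the control mice and without combination replicate 1 or 2.

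The 33-nucleotide class was not led by 1 clone in most mice. Its most frequent clone held 5.19% to 25.3% of the class in control mice and 6.80%, 40.4%, 12.9% and 12.4% in combination mice. The leading CDR3 was a different one in each of the 8 mice, for example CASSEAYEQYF in combination replicate 1 and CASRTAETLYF, with Trbv13-1, Trbj2-3 and no N nucleotides, in combination replicate 2. Without the leading clone, the class took 1.03% to 1.87% in control mice and 2.55% to 3.26% in combination mice, without overlap. Counted once per unique rearrangement it made up 3.40% ± 0.31 (SD, n = 4) in control and 3.70% ± 0.14 (SD, n = 4) in combination mice.

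The neighbouring short lengths pointed the same way without passing the test. CDR3s of 30 nucleotides took 0.254%, 0.572%, 0.346% and 0.330% in control mice and 1.13%, 0.432%, 0.856% and 1.38% in combination mice (log2 fold change 1.34, SE 0.49, adjusted p = 0.0753, edgeR). CDR3s of 27 nucleotides took 0.021% to 0.073% in control mice and 0.278%, 0.020%, 0.155% and 0.102% in combination mice (log2 fold change 1.55, SE 0.70, adjusted p = 0.147, edgeR). Combination replicate 2 lay within the control range for 30 nucleotides and below all control mice for 27 nucleotides.

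Added together, CDR3s of 33 nucleotides or shorter took 1.75% to 2.42% of templates in control mice and 3.96% to 5.96% in combination mice. This sum was chosen after its parts were seen and was not tested. Of unique rearrangements they made up 3.99% to 5.09% in control mice and 4.68% to 4.88% in combination mice. The short CDR3s therefore took fewer templates than their share of rearrangements in every control mouse. In combination mice the group means of both shares were close, at 4.84% of templates and 4.78% of rearrangements. The template share was the higher one in combination replicates 1 and 2 and the lower one in replicates 3 and 4. Of the clones above 1% of templates, 0 of 48 in control mice and 1 of 31 in combination mice had a CDR3 this short.

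**Figure D4:**
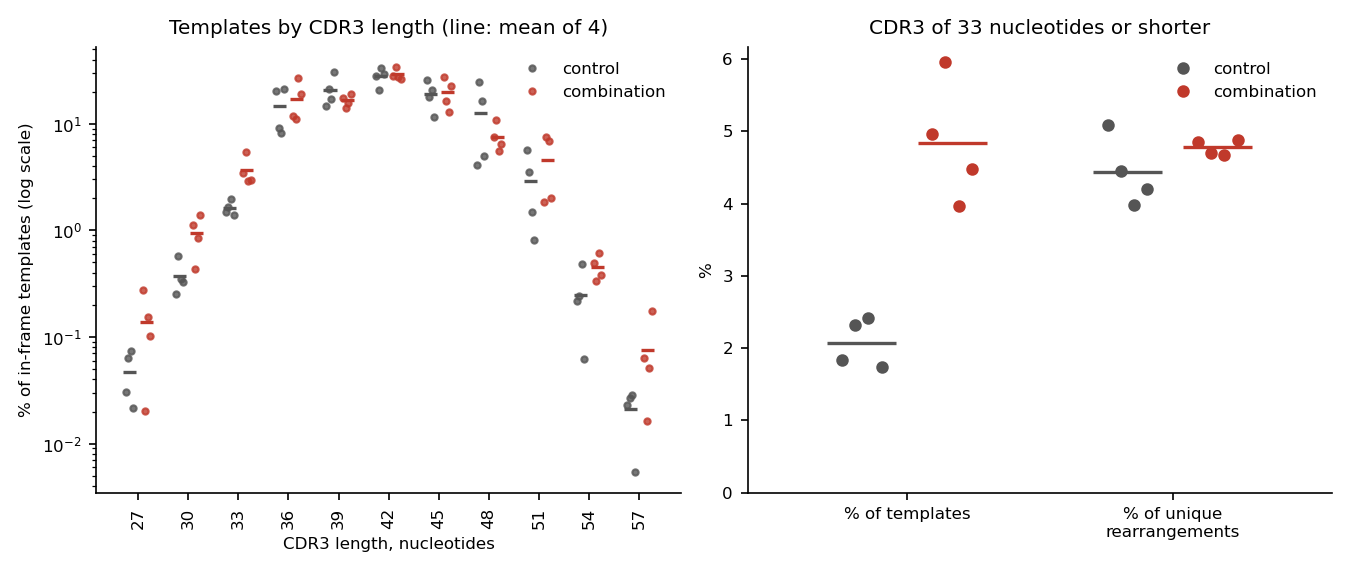
Left, percent of in-frame templates at each CDR3 length in nucleotides (y axis on a log scale, x axis length). Right, the percent of templates and of unique rearrangements with a CDR3 of 33 nucleotides or shorter. Points are mice and lines are means of 4. The groups separate at 33 nucleotides and in the summed short lengths by template, and overlap by rearrangement.

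The mean CDR3 length per rearrangement did not shift, at 42.1 nucleotides in both groups (difference 0.038, SE 0.142, exact permutation p = 0.886, two-sided). The 8 lengths above 33 nucleotides had a median log2 fold change of 0.15, and none passed the test. The 48-nucleotide class reached 24.8% in control replicate 2 and 16.3% in control replicate 3, whose leading clones have that length, and was 4.12% and 5.01% in control replicates 1 and 4, against 5.55% to 10.8% in combination mice.

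For comparison, the 33-nucleotide class took 2.82% to 4.09% of templates in mice given ANT008 with IgG and 1.98% to 6.09% in mice given anti-PD-1 with scrambled peptide. Trbv14 took 1.51% to 12.3% and 2.67% to 19.5% in those groups. All 4 control mice were thus below the lowest mouse of every treated group for the 33-nucleotide class. Against the anti-PD-1 group the margin was slight, with 1.97% in control replicate 3 and 1.98% in the lowest anti-PD-1 mouse. The low and narrow Trbv14 range was found in combination mice. No test between treated groups was made.

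The junctions themselves were compared per unique rearrangement, so that large clones count once. N1 insertions averaged 1.947, 1.859, 1.890 and 1.836 nucleotides in control replicates 1 to 4 and 1.865, 1.834, 1.882 and 1.822 in combination replicates 1 to 4 (difference -0.033, SE 0.028, exact permutation p = 0.286, two-sided). N2 insertions averaged 1.747 ± 0.038 (SD, n = 4) in control and 1.718 ± 0.011 (SD, n = 4) in combination mice (exact permutation p = 0.171). All combination mice were below the control mean for both, though inside the control range for N2. Rearrangements without any N nucleotide made up 8.25%, 8.18%, 7.56% and 9.47% in control mice and 8.76%, 9.43%, 8.53% and 9.38% in combination mice (difference 0.658 percentage points, SE 0.459, exact permutation p = 0.200). Control replicate 4 was above all combination mice and the other 3 control mice were below them.

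Trimming of the segments was also close. V deletions averaged 2.620 nucleotides in control and 2.639 in combination mice (exact permutation p = 0.629), J deletions averaged 2.844 and 2.798 (p = 0.314), deletions at the 5′ end of D averaged 2.515 and 2.476 (p = 0.143) and those at the 3′ end of D averaged 3.077 and 3.055 (p = 0.4), all by the same exact permutation test. Over all 15 single values tested the smallest adjusted p was 0.5. With 4 mice against 4, the smallest two-sided p this exact test allows is 0.0286.

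Weighted by templates, 2 junction values moved apart. V deletions then averaged 1.758, 1.907, 2.022 and 1.953 in control mice and 2.524, 2.543, 2.574 and 2.451 in combination mice. All combination mice lay above all control mice, with a difference of 0.613 nucleotides and the smallest exact permutation p possible, 0.0286, before adjustment. Without the 10 most frequent rearrangements of each mouse, the ranges overlapped, at 2.43 to 2.61 and 2.47 to 2.91. Templates without any N nucleotide made up 4.25%, 6.73%, 5.81% and 9.53% in control mice and 12.1%, 8.43%, 10.4% and 20.4% in combination mice (difference 6.27 percentage points, exact permutation p = 0.0571 before adjustment). Control replicate 4 and combination replicate 2 were the overlapping mice. The leading clone without N nucleotides was the same in control replicates 2 and 4 and combination replicate 4, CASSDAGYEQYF, at 1.14%, 2.84% and 5.95% of templates.

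Clone sizes were compared as the share of templates in clones of a given size, a clone being 1 nucleotide rearrangement. Clones above 1% of templates held 53.4%, 38.8%, 27.7% and 49.8% in control mice and 18.1%, 27.7%, 40.4% and 21.4% in combination mice. Combination replicates 1 and 4 lay below all control mice and combination replicate 3 lay among them. Combination replicate 2, at 27.66%, was barely below control replicate 3, at 27.70%. At equal depth their order turned, with 27.66% and 27.61%. The difference of -15.5 percentage points (SE 7.6) had an exact permutation p of 0.114. There were 8 to 15 such clones in a control mouse and 6 to 10 in a combination mouse. At the other end, clones at or below 0.01% held 14.4%, 25.2%, 28.9% and 11.5% in control mice and 44.6%, 27.9%, 25.1% and 38.1% in combination mice (difference 13.9 percentage points, SE 6.2, exact permutation p = 0.143). The 2 classes between them differed less, by -0.71 points for 0.1% to 1% (SE 2.06) and by 2.34 points for 0.01% to 0.1% (SE 2.66), with exact permutation p of 0.743 and 0.486.

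**Figure D5:**
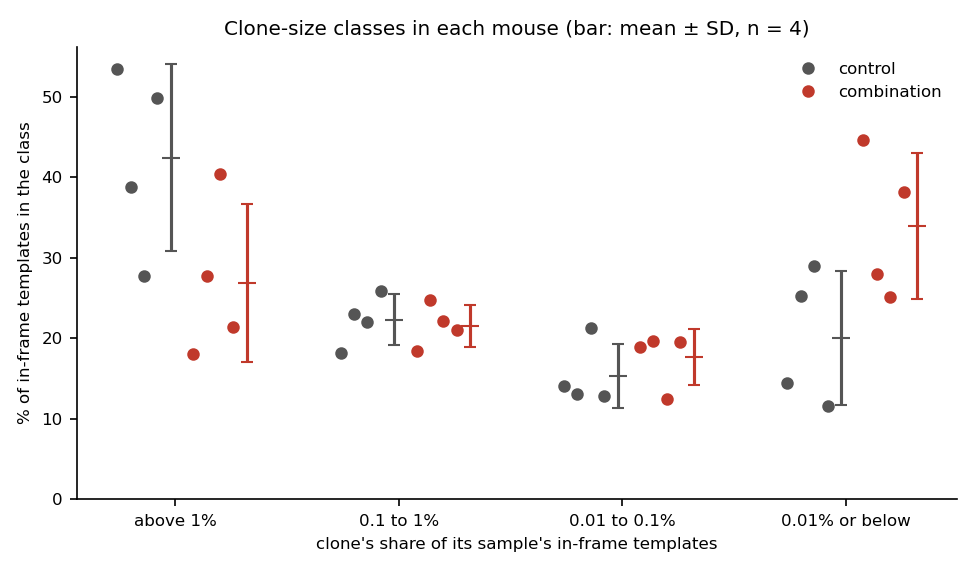
Percent of in-frame templates (y axis) in clones of 4 size classes (x axis, the clone's share of its own sample), with 1 point per mouse and a bar at the mean with its SD over 4 mice. In the class above 1%, 3 combination mice lie below all control mice, of which combination replicate 2 does so by a margin that turns at equal depth. In the smallest class 2 combination mice lie above all control mice.

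The large clones used many genes. The clones above 1% carried 7 to 9 V genes in a control mouse and 3 to 8 in a combination mouse, and 4 or more J genes in every mouse. By absolute size, clones of over 100 templates held 57.4% ± 11.7 (SD, n = 4) of templates in control and 38.7% ± 13.8 (SD, n = 4) in combination mice, while single-template rearrangements held 13.9% ± 5.5 (SD, n = 4) and 23.5% ± 6.4 (SD, n = 4).

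Clones found in several mice of only 1 group were defined by CDR3 amino acid sequence. Of 5426 CDR3s found in 2 or more of the 8 mice, 1526 (28.1%) were found only in combination mice and 454 (8.37%) only in control mice, and the rest were found on both sides. Of the combination-only CDR3s, 169 were in 3 mice and 17 in all 4, against 25 and 2 of the control-only CDR3s. The difference of 1072 CDR3s had an exact permutation p of 0.0857 over the 70 ways of dividing the 8 mice. At an equal depth of 24525 templates the difference was 681 (p = 0.114, same exact test). Distinct CDR3s per mouse, which numbered 3523 to 9199 in control and 5991 to 12078 in combination mice, moved with this count, and their part in it was not tested.

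These recurrent one-sided CDR3s were small. In combination mice they made up 7.79% to 9.41% of a mouse's CDR3s but 5.32% to 7.11% of its templates, and 65.6% to 67.2% of them were single templates. In control mice they made up 3.37% to 4.97% of CDR3s and 27.7%, 3.00%, 4.17% and 3.78% of templates in replicates 1 to 4. The high value of control replicate 1 lay mostly in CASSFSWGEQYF, at 14.5% of templates. The group means of the template share were 6.57% in combination and 9.67% in control mice (exact permutation p = 0.286), and without control replicate 1 the sign of the difference turned once the unequal group sizes were allowed for.

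The recurrent CDR3s, on either side, had shorter junctions than the rest of the same mouse's rearrangements. N1 and N2 insertions together averaged 2.24 ± 0.09 (SD, n = 4) nucleotides in combination-only and 2.45 ± 0.12 (SD, n = 4) in control-only recurrent CDR3s. CDR3s found in both groups had 2.04 in combination and 2.13 in control mice, and the remaining, private ones had 4.02 and 4.11. The share without N nucleotides was 18.0% and 14.6% in one-sided recurrent CDR3s, 21.7% and 20.6% in those found in both groups, and 5.50% and 4.62% in private ones, for combination and control mice in turn. Mean CDR3 length was 41.0 and 40.7 nucleotides in one-sided recurrent and 42.5 nucleotides in private CDR3s of both groups. Trbj2-7 was the J gene of 24.3% and 22.8% of one-sided recurrent and 19.0% and 19.8% of private rearrangements.

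The combination-only CDR3s with the highest mean share among those in all 4 mice, and the 2 control-only CDR3s in all 4 mice, are shown as their most frequent rearrangement, because they are the sequences that recur within 1 group. Capitals again mark the CDR3 bases read.
Combination-only, Trbv3 with Trbj2-2: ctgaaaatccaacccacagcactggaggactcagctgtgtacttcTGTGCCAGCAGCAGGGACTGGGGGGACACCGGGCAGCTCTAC
Combination-only, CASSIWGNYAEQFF, Trbv19 with Trbj2-1: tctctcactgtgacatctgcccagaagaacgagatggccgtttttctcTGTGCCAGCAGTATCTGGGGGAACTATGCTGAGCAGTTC
Combination-only, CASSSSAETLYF, Trbv29 with Trbj2-3: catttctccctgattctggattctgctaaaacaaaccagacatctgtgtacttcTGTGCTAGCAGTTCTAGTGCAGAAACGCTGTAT
Combination-only, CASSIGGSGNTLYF, Trbv19 with Trbj1-3: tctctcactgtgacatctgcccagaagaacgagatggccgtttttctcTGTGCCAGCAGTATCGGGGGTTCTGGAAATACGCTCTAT
Combination-only, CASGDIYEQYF, Trbv13-2 with Trbj2-7: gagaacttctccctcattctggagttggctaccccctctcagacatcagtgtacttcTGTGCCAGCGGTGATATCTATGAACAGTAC
Combination-only, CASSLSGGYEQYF, Trbv16 with Trbj2-7: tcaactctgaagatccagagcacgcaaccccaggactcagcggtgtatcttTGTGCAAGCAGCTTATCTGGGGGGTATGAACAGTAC
Control-only, Trbv4 with Trbj2-5: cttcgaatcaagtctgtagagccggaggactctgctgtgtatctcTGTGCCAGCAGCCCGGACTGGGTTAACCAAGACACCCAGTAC
Control-only, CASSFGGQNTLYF, Trbv14 with Trbj2-4: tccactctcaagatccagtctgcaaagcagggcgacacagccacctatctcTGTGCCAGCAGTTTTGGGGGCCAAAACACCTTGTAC
The Trbv3 with Trbj2-2 CDR3 had 44, 13, 21 and 1 templates in combination replicates 1 to 4, or 0.132%, 0.053%, 0.036% and 0.0028%. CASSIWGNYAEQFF, whose rearrangement shown has no N nucleotides, had 42, 4, 2 and 2 templates. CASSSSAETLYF, likewise without N nucleotides, had 23, 7, 1 and 4, and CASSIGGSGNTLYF, which carries Trbj1-3, had 9, 1, 1 and 26. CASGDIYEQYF, of 33 nucleotides, had 1, 9, 11 and 2 templates, and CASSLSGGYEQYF had 3, 3, 2 and 12. Each was at 0 templates in all 4 control mice, where a count of 0 allows up to 0.0087% on average, so several of these values were within what the control depth could have missed. These CDR3s were encoded by 3 to 7 different rearrangements in the combination mice.

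On the control side, the Trbv4 with Trbj2-5 CDR3 had 1, 11, 25 and 3 templates in replicates 1 to 4, and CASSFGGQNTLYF, with Trbv14, had 7, 1, 1 and 3. The next control-only CDR3s were in 3 mice each. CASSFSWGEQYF had 3759, 1, 23 and 0 templates, of which 3730 in control replicate 1 were the rearrangement shown for that mouse. The 1 template in control replicate 2 was that same rearrangement. Over the control mice this CDR3 had 23 rearrangements with 14 V genes, and 99.6% of its templates carried Trbv14 with Trbj2-7. Control replicate 1 alone held 22 of these rearrangements, nearly all at low counts beside its leading clone. Control replicates 2 and 3 held 1 each. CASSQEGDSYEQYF, with Trbv2, had 667, 18, 0 and 4. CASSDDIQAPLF had 10, 119, 0 and 18, and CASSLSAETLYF, with Trbv15 and Trbj2-3, had 20, 0, 53 and 1. Of the 12 CDR3s named here, 11 were also present in at least 1 mouse given anti-PD-1 with scrambled peptide, and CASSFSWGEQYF was found in 1 mouse given ANT008 with IgG.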

How the data were processed

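TCRβ rearrangements of 8 of the 16 samples were compared, with all 16 in the fits across genes. Per the labels, RNA was extracted from the selected T cells, and the study's text names DNA elsewhere, so a template may be a transcript and not a cell. The sequencing service's immunoSEQ assay amplified the CDR3 region with V and J primers and corrected primer bias with a synthetic repertoire. The deposited files hold 1 entry per 87-base rearrangement with its template count, and each file holds 1 mouse. Per the file headers, each entry also gives other values per rearrangement, namely CDR3 length, deletions and insertions. The aligner, its version and the genome build are not given in the sources used here, so no coordinates are printed. Gene symbols came from a RefSeq table (33 of 33 V and 14 of 14 J names matched). Single D genes were not called in 12.5% to 27.0% of a mouse's templates. Rearrangements without a D call entered the N1 and N2 means at their file values and were left out of the D deletion means. In all entries with both, N1 lay before D and N2 after it.

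Templates per V gene, J gene, V-J pair and CDR3 length entered edgeR's quasi-likelihood test as deposited counts, with all 16 samples, in-frame templates as library size, and Benjamini-Hochberg adjusted p under 0.05. Pairs and lengths needed 10 templates in 4 samples, and V and J genes had no filter. Single values were compared by exact permutation over the 70 divisions of the 8 mice, two-sided, adjusted over 15 values. When a mouse was left out, the recurrent CDR3 values were centered on their mean over the divisions, since the sides were then unequal. Upper limits of 0 used 3 templates, and intervals were Wilson 95%. Named were every called feature and the 6 V genes, 3 J genes, 6 V-J pairs and 3 lengths with the smallest p, the leading clone of each mouse, and the 6 recurrent clones of each side in most mice, ties by mean share. Other genes were given as levels. The comparison, features and lists were chosen with earlier results of these data known. Alternatives were DESeq2, TMM, the 8 samples alone, unique rearrangements, no 10 most frequent rearrangements, out-of-frame rearrangements, another filter, template weighting, equal depth (20 draws of 24525 templates), the exact form of Dunnett's comparison, other clone definitions, a replicate block and each sample left out. Nothing says whether mice were housed or processed together, and no batch can be told from the files. Scripts were tested on simulated data. Tools were Python 3.11.15, numpy 2.4.6, pandas 2.3.3, scipy 1.17.1, numba 0.67.0, Biopython 1.88, matplotlib 3.10.9, R 4.3.3, edgeR 4.0.16 and DESeq2 1.42.0.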

Additional observations from a re-analysis of the deposited data

Results flagged for a closer look

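In 8 of 62 groups of 4 mice examined (31 values in each of the 2 groups), 1 mouse stood far from the other 3. Its gap to the nearest of them, as a share of the group's range, exceeded Dixon's 95% critical value. For normally distributed values, chance gives this in about 1 in 20 groups. That rate cannot be applied here, because template shares are skewed by single clones and the features were named for their smallest p. Trbv1 took 22.5% of templates in control replicate 2, Trbj1-2 took 17.6% in control replicate 4 and Trbj2-6 took 0.0692% in control replicate 1. Trbv22 took 1.90% in combination replicate 1, Trbv16 with Trbj1-3 took 4.84% in combination replicate 4 and Trbv26 with Trbj1-3 took 6.69% in combination replicate 3. Each of these 6 values lay mostly in 1 clone, as described above. Clones of 0.01% to 0.1% held 12.5% of templates in combination replicate 3, below 18.8% to 19.7% in the other combination mice, and 21.3% in control replicate 3, above 12.8% to 14.0% in the other control mice. In clones above 1%, combination replicate 3 had the highest share of its group and control replicate 3 the lowest of its own.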

How the results depend on the processing

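Calls were few, and 4 mice per group with 1 sample each limited the precision. Adjusted p under 0.05 was reached by 1 V gene as reported, by 2 in a fit of the 8 samples alone (Trbv14 and Trbv22), and by 0 under the filter on low counts, in unique rearrangements and without the 10 most frequent rearrangements. Out-of-frame rearrangements, which encode no receptor, gave 3 V genes (Trbv3, Trbv10 and Trbv20), 1 J gene (Trbj2-4) and 3 V-J pairs, against 1, 0 and 0 in frame. The pairs were Trbv15 with Trbj1-3, Trbv16 with Trbj1-5 and Trbv26 with Trbj2-4. Of these, Trbv15 with Trbj1-3 had a log2 fold change of 5.56 out of frame (adjusted p = 0.0374, edgeR), against 3.63 in frame. DESeq2 called 16 V-J pairs, 5 of them higher and 11 lower, where edgeR called 0 with 37 at an unadjusted p under 0.05. It called 0 J genes and 1 V gene (Trbv14). CDR3 lengths called fell from 1 to 0 with DESeq2, TMM, the 8 samples alone, the other filter, the replicate block, unique rearrangements and without the 10 most frequent. Leaving out each mouse gave 0 to 3 V genes, 0 to 1 J genes, 0 V-J pairs and 0 to 2 CDR3 lengths (30 and 27 nucleotides without combination replicate 2). The cause of these changes was not tested.

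Replicate numbers were not used as pairs in the main fits. Same-numbered mice deviated from their group means over 25 V genes with correlations of -0.23 to -0.016. These correlations cannot show whether same-numbered mice were housed or processed together. With the replicate block, 1 V gene, 0 J genes, 0 V-J pairs and 0 CDR3 lengths were called, and the log2 fold change of the 33-nucleotide class was 1.13 (adjusted p = 0.0791, edgeR). The block changed no other call.

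Log2 fold changes turned sign in out-of-frame rearrangements for Trbv14 (0.36), Trbv22 (-0.99), Trbj2-6 (0.80), Trbv13-3 with Trbj1-3 (-0.87), Trbv16 with Trbj1-3 (-1.39) and Trbv13-1 with Trbj2-2 (-1.74). In unique rearrangements they turned for Trbv22 (-0.11), Trbv15 (-0.054), Trbv26 (-0.060) and 27 nucleotides (-0.097), and without the 10 most frequent for Trbv22 (-0.45), Trbv26 (-0.016) and Trbv13-1 with Trbj2-2 (-0.32). With each mouse left out, Trbv22 ranged from -0.77 to 3.06 (lowest without combination replicate 1), Trbj2-6 from -3.20 to 2.66 (highest without control replicate 1) and Trbj1-2 from -1.03 to 0.13 (highest without control replicate 4).

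Among single values, weighting by templates turned mean CDR3 length (-0.373), N1 (0.0943) and N2 insertions (0.0911) and deletions at the 3′ end of D (0.319), and took V deletions to 0.613 with the smallest exact permutation p possible. Without single-template rearrangements, CDR3 length was -0.123 and J deletions 0.0122. Out-of-frame rearrangements gave -0.117 for V deletions, 0.0678 for the 3′ end of D and 1.28 percentage points for rearrangements without N nucleotides, the last with an exact permutation p of 0.0286. Clones of 0.1% to 1% differed by 0.249 points when defined by CDR3. With each mouse left out, the first J cluster ranged from -3.75 to 1.22 points, CDR3 length from -0.0871 to 0.121, N2 from -0.0469 (exact permutation p = 0.0286 without control replicate 4) to -0.0190, V deletions from -0.00516 to 0.0378, clones of 0.1% to 1% from -2.08 to 0.484 points and templates in one-sided recurrent CDR3s from -7.41 to 1.95 points (highest without control replicate 1). The remaining alternatives for single values kept their direction and stayed on the same side of the threshold. For the replicate block this was fixed in advance, so it was no check of these values. The block left each difference unchanged, and its exact test on 4 pairs of mice cannot give a p under 0.05.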
